A study of Mus musculus with 5 samples.

Results

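The nuclear-encoded genes of respiratory complexes II to V were read from ribosome-bound mRNA of soleus myocytes. Members were taken by symbol from the array annotation, as every probe set with a single gene symbol for a succinate dehydrogenase subunit or assembly factor (*Sdha* to *Sdhd*, *Sdhaf*), a cytochrome bc1 subunit (*Uqcr*, *Cyc1*), a cytochrome c oxidase subunit or factor (*Cox4* to *Cox8*, *Cox10* to *Cox19*) or an ATP synthase subunit (*Atp5*). This gave 59 genes, each with 1 probe set, of 19572 probe sets with a single symbol and 22206 probe sets in all. Complex II held 8 of these genes, complex III 9, complex IV 25 and complex V 17.

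The arrays came from 5 sedentary HA-RiboTagMyo mice, numbered 1, 3, 11, 14 and 16, 1 Clariom S array per mouse. The mice carried Myogenin-Cre together with the floxed allele RiboTag-Rpl22fl/fl-HA. The Cre, under control of myogenin, switches on an HA epitope tag on RPL22, a protein of the large ribosomal subunit, in cells that have expressed myogenin, and antibody against HA then recovers the ribosomes of those cells along with the mRNA they hold. RNA was recovered from the left soleus, a slow postural muscle of the hind limb. The labels give neither age nor sex, and the Methods state that sexually mature male mice were used unless otherwise stated. Y-linked genes, given below, did not show this for mice 1 and 16. There was a single group, with no second condition, no untagged mice and no unbound RNA among the arrays analysed here, so values could be set only against background on the array and between mice.

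Complex II oxidizes succinate and passes electrons to ubiquinone, complex III passes them from ubiquinol to cytochrome c, complex IV passes them from cytochrome c to oxygen, and complex V uses the proton gradient that complexes III and IV help to build to make ATP. Each of complexes III, IV and V also has subunits encoded in mitochondrial DNA, which lie outside the genes described here, whereas complex II is encoded in the nucleus alone. In complex IV several small subunits exist as paralogs, with muscle forms (*Cox6a2*, *Cox7a1*, *Cox8b*) that replace the widely expressed, liver-type forms (*Cox6a1*, *Cox7a2*, *Cox8a*) in heart and skeletal muscle, and others described mainly in lung (*Cox4i2*) or testis (*Cox6b2*, *Cox7b2*, *Cox8c*).

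The promoters of the muscle and liver-type paralogs are shown because these pairs carry the isoform comparison. Of the 59 genes, 45 had an entry in the RefSeq promoter table (GRCm38.p6), in 48 windows that run from 250 bases before the gene's start to 50 bases after it. Both *Cox7a* and both *Cox8* promoters were present, as was that of *Cox6a1*. The windows are written 5′ to 3′ on the strand of the gene. Capitals mark the letters CCGGAAGT, the core bound by GABPA (also called NRF-2), read here on the opposite strand in *Cox8a*, and the palindrome bound by NRF1 in *Cox6a1*. Both factors are known regulators of nuclear respiratory chain genes. The windows lie at chr7:30183921-30184220 on the plus strand for *Cox7a1*, and on the minus strand at chr9:79759804-79760103 for *Cox7a2*, chr7:140900397-140900696 for *Cox8b*, chr19:7217567-7217866 for *Cox8a* and chr5:115348909-115349208 for *Cox6a1*.
Cox7a1: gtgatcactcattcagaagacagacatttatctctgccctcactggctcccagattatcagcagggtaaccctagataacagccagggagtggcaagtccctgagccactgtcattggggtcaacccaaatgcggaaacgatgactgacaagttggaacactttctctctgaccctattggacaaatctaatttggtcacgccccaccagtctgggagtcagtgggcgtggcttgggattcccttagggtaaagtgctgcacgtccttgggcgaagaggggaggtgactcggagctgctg
Cox7a2: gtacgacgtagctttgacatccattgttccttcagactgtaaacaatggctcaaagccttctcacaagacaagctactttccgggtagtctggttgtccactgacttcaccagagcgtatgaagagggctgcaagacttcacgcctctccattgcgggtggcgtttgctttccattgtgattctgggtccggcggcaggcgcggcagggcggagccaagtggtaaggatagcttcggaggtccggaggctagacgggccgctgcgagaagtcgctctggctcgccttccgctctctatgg
Cox8b: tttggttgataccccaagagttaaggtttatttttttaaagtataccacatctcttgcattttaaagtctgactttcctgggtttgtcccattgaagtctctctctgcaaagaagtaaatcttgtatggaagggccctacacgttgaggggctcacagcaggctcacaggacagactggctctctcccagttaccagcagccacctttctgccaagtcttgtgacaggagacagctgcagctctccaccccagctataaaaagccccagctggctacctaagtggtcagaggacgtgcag
Cox8a: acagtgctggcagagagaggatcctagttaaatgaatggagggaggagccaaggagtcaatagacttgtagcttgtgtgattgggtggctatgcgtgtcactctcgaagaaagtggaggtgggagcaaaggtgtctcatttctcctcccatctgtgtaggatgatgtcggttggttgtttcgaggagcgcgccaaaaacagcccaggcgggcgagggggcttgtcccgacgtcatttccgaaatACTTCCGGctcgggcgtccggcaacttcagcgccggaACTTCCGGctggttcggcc
Cox6a1: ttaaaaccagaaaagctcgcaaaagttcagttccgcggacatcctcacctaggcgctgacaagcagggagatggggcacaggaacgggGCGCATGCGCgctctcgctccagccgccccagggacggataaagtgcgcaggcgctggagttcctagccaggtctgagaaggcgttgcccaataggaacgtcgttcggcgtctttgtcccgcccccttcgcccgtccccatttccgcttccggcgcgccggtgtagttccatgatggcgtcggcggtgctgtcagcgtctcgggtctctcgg

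In the *Cox7a* and *Cox8* pairs, the window of the muscle form held fewer CpG dinucleotides than that of the liver-type form. *Cox7a1* had 7 CpG and *Cox7a2* had 20. *Cox8b* had 2, the fewest of all member windows, and *Cox8a* had 19. *Cox6a1* had 32, but *Cox6a2* had no window to set beside it. The median was 19.5 over the 48 member windows and 14 over 19143 windows of 15691 genes on the array. Member windows and all windows had a median GC content of 57.7% and 57%. None of these counts was tested.

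Fixed motifs of NRF1, GABPA, ESRRA, YY1 and MEF2 were searched, with no mismatch, on both strands of every window. The NRF1 palindrome, spelled as in the *Cox6a1* window above, was present in 4 of 48 member windows (8.33%), those of *Atp5g2*, *Atp5k*, *Cox6a1* and *Uqcrc1*, and in 1.41% of all windows. CCGGAAGT for GABPA was present in 7 member windows (14.6%), those of *Atp5h*, *Cox10*, *Cox14*, *Cox15*, *Cox8a*, *Uqcr11* and *Uqcrh*, and in 5.33% of all windows. *Cox8a* held it at 2 places, which begin 6 bases before the start and 32 bases after it. TCAAGGTCA for the estrogen-related receptor ESRRA was present in *Atp5g3* and *Sdhd* (4.17% of member windows and 0.303% of all windows), and the YY1 motif in *Atp5j* and *Cox10* (4.17% and 1.25%). The MEF2 consensus was in 0 member windows and in 0.481% of all windows. A match describes the letters in a window and not occupancy by the factor.

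Nearly all members lay above background. The deposited values are log2 signals, and background in each array was the 95th percentile of 1091 odorant receptor genes, which lay between 5.25 and 5.32. Genes counted as called above background had a log2 distance from this cutoff that exceeded 0 at an adjusted p under 0.05 (limma, Benjamini-Hochberg over 19505 genes). By this rule 56 of 59 members (94.9%) were called, beside 43.5% of all genes. All 8 genes of complex II, all 9 of complex III and all 17 of complex V were called, and 22 of 25 genes of complex IV. The 3 members not called were *Cox4i2*, *Cox6b2* and *Cox7b2*. Above the cutoff in each of the 5 mice were 55 members (93.2%), beside 42.5% of all genes.

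The signals of the called members spanned mean log2 values of 6.17 to 19.75, with a median of 16.14, beside a median of 8.56 over all called genes. Structural subunits and assembly factors differed in their medians and overlapped in range. The 43 called subunits, leaving out *Cox8c*, lay between 9.22 and 19.75 with a median of 16.73, and the 12 assembly factors lay between 7.02 and 12.23 with a median of 9.57. Probe sets differ in affinity, so a higher signal for one gene than for another is not a ratio or an order of their transcripts. The RNA was a bulk pulldown, in which fewer cells of a type and less RNA per cell cannot be told apart. Within 1 log2 unit of the highest signal of an array, 19.93 or 19.90, lay 7 members (11.9%), namely *Atp5a1*, *Atp5b*, *Atp5c1*, *Atp5h*, *Cox6a2*, *Cox7c* and *Uqcrb*, beside 0.272% of all genes.

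**Figure D1:**
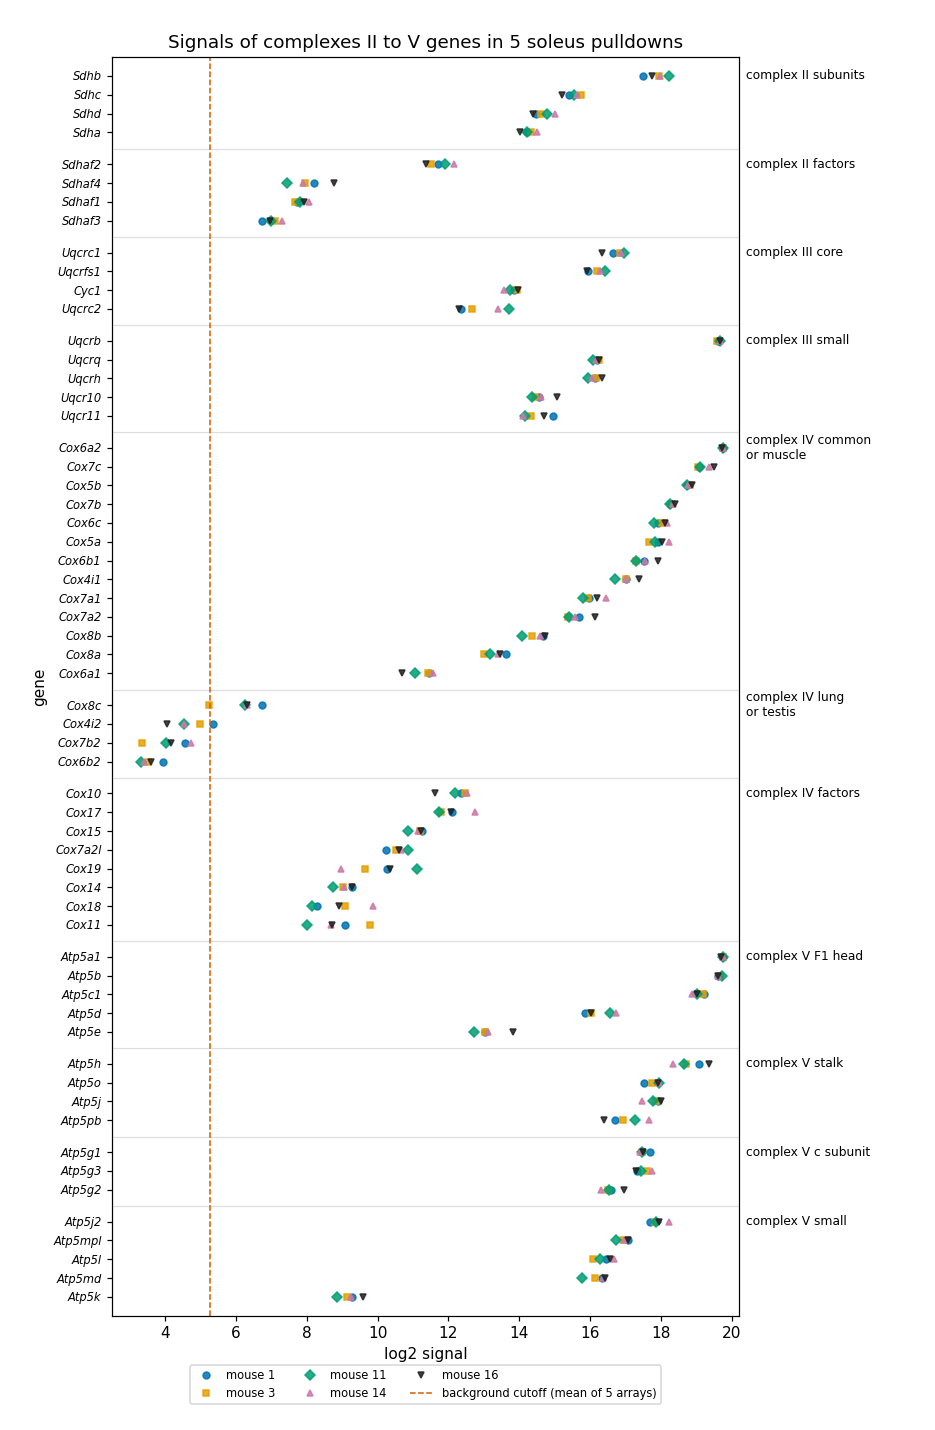
Log2 signal of each of the 59 genes, grouped by complex, with 1 point per mouse and the background cutoff drawn as a line. Signals of called genes run from a mean of 6.17 (*Cox8c*) to 19.75 (*Cox6a2*), and *Cox4i2*, *Cox6b2* and *Cox7b2* are the 3 genes not called.

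Myofiber markers were called throughout, and some markers of other cells were called too. All 10 myofiber markers were called, among them *Acta1* at 19.93 in 4 mice and 19.90 in mouse 16. Of the markers measured, 4 of 7 endothelial, 4 of 9 smooth muscle and pericyte and 4 of 4 fibroblast markers were called. So were 1 of 4 adipocyte, 1 of 2 brown adipocyte and 1 of 2 erythroid markers. Over all genes the share called was 43.5%, so counts near it do not show the presence of a cell type. The fibroblast count was above that share. *Dcn* read 9.34 ± 0.80, *Lum* 7.66 ± 0.56, *Col1a2* 6.73 ± 0.55 and *Col1a1* 6.17 ± 0.80 (SD, n = 5). The source of these signals was not tested. None of 4 immune markers and none of 5 markers of testis germ cells was called, and all 5 mice read below the cutoff at each of these 9 genes. *Rpl22*, the tagged gene, read 12.12 ± 0.53 and *Myog* read 7.12 ± 0.69 (SD, n = 5). Arrays correlated with each other at a Pearson's r of 0.976 to 0.986 across probe sets, which are not independent replicates. *Eif2s3y*, a Y-linked gene, read 3.54 in mouse 1 and 3.53 in mouse 16, and 10.42, 11.92 and 12.73 in mice 3, 11 and 14. *Uty*, also Y-linked, read 4.09 and 3.93 in mice 1 and 16, and 6.96, 7.35 and 7.44 in mice 3, 11 and 14. These genes and Y-linked *Kdm5d* lay below the cutoff in mice 1 and 16 and above it in mice 3, 11 and 14. The arrays thus do not show mice 1 and 16 to be male, as the Methods state, and their sex was not tested.

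The muscle form *Cox6a2* read near the top of the scale in every mouse. Its log2 signal was 19.76 in mice 1, 3, 11 and 14 and 19.74 in mouse 16. These values spanned 0.02 log2 units, and 4 of them were equal, so that differences between mice were hardly visible at this probe set. *Cox6a1*, the liver-type form, read 11.46, 11.44, 11.07, 11.57 and 10.68 in mice 1, 3, 11, 14 and 16. Mouse 16 was lowest for both genes, and the ranges of both genes lay far apart. *Cox6a2* was 14.48 ± 0.13 above the cutoff (SE, adjusted p = 3.46e-15) and *Cox6a1* 5.97 ± 0.16 (adjusted p = 6.37e-12). Within a mouse, *Cox6a2* read at least 8.19 above *Cox6a1*. With *Cox6a2* at nearly 1 value in all mice, the spread of this difference was that of *Cox6a1* alone. Both proteins occupy the same site in the complex.

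*Cox7a1* and *Cox7a2* both gave high signals. *Cox7a1*, the muscle form, read 15.98, 15.95, 15.81, 16.46 and 16.19 in mice 1, 3, 11, 14 and 16, a distance of 10.80 ± 0.15 from the cutoff (SE, adjusted p = 3e-14). *Cox7a2*, the liver-type form, read 15.70, 15.39, 15.41, 15.59 and 16.15, a distance of 10.37 ± 0.15 (adjusted p = 6.03e-14). *Cox7a1* was highest in mouse 14 and *Cox7a2* in mouse 16, and the ranges of both genes overlapped. The difference of *Cox7a1* minus *Cox7a2* was above 0 in 5 of 5 mice, at 0.28, 0.55, 0.40, 0.87 and 0.03, with a mean of 0.43 ± 0.31 (SD, n = 5). It was smallest in mouse 16, where both signals were close to equal. *Cox7a2l*, a related protein described as joining complexes III and IV in supercomplexes, read 10.24, 10.53, 10.86, 10.66 and 10.60, a distance of 5.30 ± 0.14 (SE, adjusted p = 7.47e-12). It was lowest in mouse 1 and highest in mouse 11. Whether its protein joins these complexes in the mice used here was not tested.

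*Cox8b* and *Cox8a* were likewise both above background. *Cox8b*, the muscle form, read 14.68, 14.37, 14.08, 14.60 and 14.73 in mice 1, 3, 11, 14 and 16 (distance 9.21 ± 0.15, SE, adjusted p = 9.63e-14). *Cox8a* read 13.62, 13.01, 13.18, 13.39 and 13.46 (distance 8.06 ± 0.14, adjusted p = 2e-13). Every value of *Cox8b* lay above every value of *Cox8a*. Within a mouse the difference was 1.16 ± 0.18 (SD, n = 5), between 0.90 in mouse 11 and 1.36 in mouse 3. The testis form *Cox8c* read 6.72, 5.24, 6.25, 6.30 and 6.32, lowest by far in mouse 3. It was above the cutoff in 4 of 5 mice, and its distance was 0.89 ± 0.19 (SE, adjusted p = 0.000949), the smallest among called members. This call was lost at the 99th percentile of odorant receptor genes (distance 0.35, adjusted p = 0.103, with 38.2% of all genes called). It was also lost with the genes of keratin-associated proteins and beta-defensins as background (distance 0.34, adjusted p = 0.117, with 38.1% of all genes called).

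The remaining paralog pairs each had 1 form well above background and 1 below it. *Cox4i1*, the widely expressed form of the largest nuclear subunit, read 17.02, 17.01, 16.70, 17.01 and 17.37 in mice 1, 3, 11, 14 and 16, a distance of 11.75 ± 0.15 (SE, adjusted p = 1.82e-14). *Cox4i2* read 5.36, 4.97, 4.53, 4.52 and 4.05, above the cutoff in mouse 1 alone, a distance of -0.59 ± 0.18 (adjusted p = 0.00927). Mouse 16 was highest for *Cox4i1* and lowest for *Cox4i2*. At the 50th percentile of odorant receptor genes, where 65.7% of all genes were called, *Cox4i2* was called too (distance 0.66, adjusted p = 0.00694). *Cox4i2* is also known from pericytes. Of the 9 smooth muscle and pericyte markers 4 were called, beside 43.5% of all genes. These 4 were *Rgs5* (9.70 ± 0.70), *Acta2* (8.48 ± 0.35), *Cspg4* (6.41 ± 1.07) and *Pdgfrb* (6.37 ± 0.62). The others, *Ndufa4l2* (5.23 ± 0.51), *Myh11* (5.11 ± 0.50), *Kcnj8* (4.78 ± 0.34), *Notch3* (4.43 ± 0.07) and *Higd1b* (4.09 ± 0.55), were not called (SD, n = 5).

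*Cox6b1*, which lies at the contact between the monomers of the cytochrome c oxidase dimer, read 17.54, 17.31, 17.29, 17.54 and 17.92 (distance 12.24 ± 0.15, SE, adjusted p = 1.48e-14). Its testis paralog *Cox6b2* read 3.93, 3.52, 3.31, 3.39 and 3.61, below the cutoff in every mouse (distance -1.73 ± 0.14, adjusted p = 2.86e-07). *Cox7b* read 18.25, 18.30, 18.27, 18.34 and 18.39 (distance 13.03 ± 0.13, SE, adjusted p = 4.86e-15), the mice lying within 0.14 log2 units of each other. *Cox7b2*, its testis paralog, read 4.57, 3.33, 4.01, 4.71 and 4.17, also below the cutoff in every mouse (distance -1.12 ± 0.19, adjusted p = 0.000161). Signals below the cutoff were not detectable above background here, which does not show that the transcripts were absent, and no difference from them is given.

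**Figure D2:**
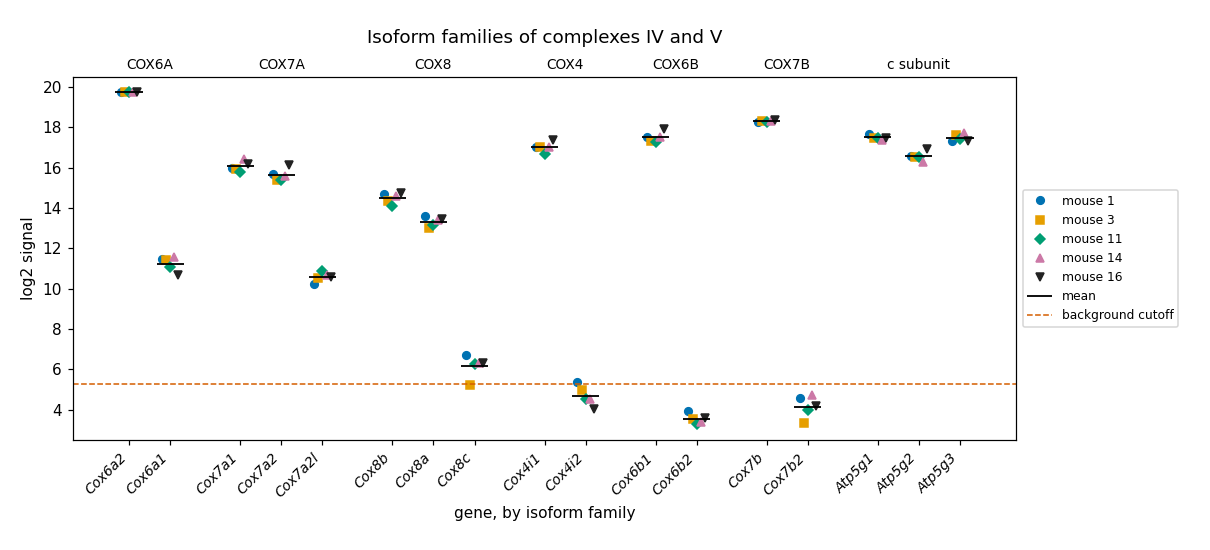
Log2 signal of the paralogs of complex IV subunits in each of the 5 mice, with the muscle or main form left of its paralogs and the background cutoff drawn as a line. *Cox6a2*, near the top of the scale, lies at least 8.19 above *Cox6a1* in every mouse, the *Cox7a1* and *Cox7a2* points overlap, and *Cox4i2*, *Cox6b2* and *Cox7b2* lie below the cutoff, apart from *Cox4i2* in mouse 1.

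The other subunits of complex IV have no paralog among the members. *Cox7c* read 19.23 ± 0.20, *Cox5b* 18.79 ± 0.06, *Cox6c* 18.01 ± 0.15 and *Cox5a* 17.94 ± 0.22 (SD, n = 5). *Cox5a* and *Cox5b* lie at the matrix side of the complex, and *Cox6c* and *Cox7c* are small membrane subunits.

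The assembly factors of complex IV were all called. Their median SD between mice was 0.38, beside 0.24 over the 13 common, muscle or liver-type subunits of the complex. The median signals differed too, at 10.33 and 17.52. Over all called genes, the median SD was 0.373 at mean signals of 5 to 10, 0.355 at 10 to 15 and 0.303 at 15 to 18. Those that make heme a, *Cox10* and *Cox15*, read 12.23 ± 0.36 and 11.13 ± 0.16 (SD, n = 5). *Cox15* read 11.24, 11.21, 11.14 and 11.21 in mice 1, 3, 14 and 16, and 10.85 in mouse 11, which stood apart. The copper chaperone *Cox17* read 12.09 ± 0.40, and *Cox14*, which acts on newly made COX1, 9.08 ± 0.22. The 3 called members with the largest SD were all assembly factors. *Cox19*, which takes part in copper handling, read 10.27, 9.65, 11.12, 8.96 and 10.36 in mice 1, 3, 11, 14 and 16, with an SD of 0.81. *Cox18*, which inserts COX2 into the inner membrane, read 8.28, 9.08, 8.14, 9.86 and 8.92, with an SD of 0.69. Mouse 11 was highest and mouse 14 lowest for *Cox19*, and the reverse held for *Cox18*. *Cox11*, which delivers copper to COX1, read 9.077, 9.776, 8.005, 8.695 and 8.715, with an SD of 0.65, highest in mouse 3 and lowest in mouse 11. Distances from the cutoff were 4.80 ± 0.25, 3.58 ± 0.23 and 3.58 ± 0.22 for *Cox19*, *Cox18* and *Cox11* (SE, adjusted p = 3.95e-09, 2.55e-08 and 1.57e-08).

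In complex II the iron-sulfur subunit *Sdhb* had the highest signal, at 17.51, 17.95, 18.24, 17.99 and 17.74 in mice 1, 3, 11, 14 and 16 (distance 12.61 ± 0.15, SE, adjusted p = 1.41e-14). The flavoprotein *Sdha*, which binds succinate, read 14.22, 14.34, 14.23, 14.50 and 14.03. The membrane anchors *Sdhc* and *Sdhd* read 15.51 ± 0.21 and 14.65 ± 0.25 (SD, n = 5). Mice 1 and 16 lay below the mean of the 5 mice for each of these 4 subunits, and mouse 14 above it. Over all called genes, 44.6%, 50.7% and 51.9% lay above their mean in mice 1, 16 and 14. Values were much lower for the assembly factors. *Sdhaf2*, which helps to attach the flavin to SDHA, read 11.73 ± 0.31, and *Sdhaf4*, which also acts on SDHA, 8.05 ± 0.49. *Sdhaf1* and *Sdhaf3*, which serve the iron-sulfur subunit, read 7.84 ± 0.16 and 7.02 ± 0.20 (SD, n = 5). *Sdhaf3* had the lowest signal of the complex, at 6.745, 7.098, 6.998, 7.290 and 6.952, and was still 1.74 ± 0.14 above the cutoff (SE, adjusted p = 2.4e-07).

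In complex III the small subunit *Uqcrb*, which helps to form the ubiquinone site, had the highest signal and read 19.62, 19.60, 19.67, 19.68 and 19.67 (distance 14.37 ± 0.13, SE, adjusted p = 3.46e-15). The mice differed by less than 0.1 log2 units. The other small subunits *Uqcrq* and *Uqcrh* read 16.19 ± 0.07 and 16.13 ± 0.15, and *Uqcr10* and *Uqcr11* 14.61 ± 0.28 and 14.45 ± 0.36 (SD, n = 5). Among the catalytic and core subunits, *Uqcrc1* read 16.66, 16.84, 16.95, 16.89 and 16.34, and the Rieske iron-sulfur protein *Uqcrfs1* 15.93, 16.20, 16.41, 16.27 and 15.92. Both were highest in mouse 11 and lowest in mouse 16. *Uqcrc2*, the second core protein, had the lowest signal of the complex and the widest range, 1.43 log2 units. It read 13.72 and 13.39 in mice 11 and 14, and 12.35, 12.68 and 12.29 in mice 1, 3 and 16 (distance 7.61 ± 0.22, SE, adjusted p = 1.04e-11). *Cyc1*, the heme-bearing cytochrome c1, read 13.85, 13.95, 13.75, 13.57 and 13.98, with mouse 16 highest and mouse 14 lowest.

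In complex V *Atp5a1*, the alpha subunit of the catalytic head, had the highest signal. It read 19.75 in mice 1, 3 and 11, 19.76 in mouse 14 and 19.71 in mouse 16 (distance 14.46 ± 0.13, SE, adjusted p = 3.46e-15). The beta subunit *Atp5b* read 19.65 ± 0.05 and the gamma subunit *Atp5c1* of the rotating stalk 19.06 ± 0.14. The delta and epsilon subunits of the same stalk, *Atp5d* and *Atp5e*, read 16.25 ± 0.39 and 13.15 ± 0.40 (SD, n = 5). *Atp5d* was highest in mice 11 and 14 and *Atp5e* in mouse 16.

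The c subunit, which forms the rotating ring in the membrane, is encoded by *Atp5g1*, *Atp5g2* and *Atp5g3*, whose mature proteins are identical and whose import sequences differ. *Atp5g1* read 17.69, 17.46, 17.47, 17.40 and 17.49 in mice 1, 3, 11, 14 and 16 (distance 12.22 ± 0.13, SE, adjusted p = 8.21e-15). *Atp5g2* read 16.60, 16.51, 16.53, 16.30 and 16.95 (distance 11.30 ± 0.14, adjusted p = 2.16e-14), and *Atp5g3* 17.32, 17.62, 17.43, 17.74 and 17.30 (distance 12.21 ± 0.14, adjusted p = 1.12e-14). Every *Atp5g2* value lay below every value of the other c subunit genes, whose ranges overlapped. *Atp5g1* exceeded *Atp5g2* by 0.92 ± 0.23 within a mouse, and *Atp5g3* exceeded it by 0.90 ± 0.41 (SD, n = 5). *Atp5g1* exceeded *Atp5g3* in 3 of 5 mice, so the sign of this difference was not the same in all mice. Probe sequences were not used, so that cross-hybridization among these genes, other paralogs or pseudogenes was not tested.

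The peripheral stalk, which holds the head still against the rotor, read 18.83 ± 0.40 at *Atp5h*, 17.82 ± 0.18 at *Atp5o*, 17.81 ± 0.20 at *Atp5j* and 17.00 ± 0.49 at *Atp5pb* (SD, n = 5). Of the small membrane subunits, *Atp5j2* read 17.92 ± 0.19, *Atp5mpl* 16.95 ± 0.14, *Atp5l* 16.42 ± 0.23 and *Atp5md* 16.21 ± 0.26. *Atp5k*, the e subunit that takes part in joining ATP synthase dimers, had the lowest signal of the complex, at 9.27, 9.14, 8.85, 9.25 and 9.60 (distance 3.94 ± 0.15, SE, adjusted p = 1.52e-10). It was highest in mouse 16 and lowest in mouse 11.

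Between mice, the median deviation of the members was lowest in mice 3 and 11 and highest in mice 14 and 16. These medians were smaller than the median SD between mice over the called members, 0.23. Each called member's signal was set against its own mean over the 5 mice, and the median of these deviations was 0.00, -0.05, -0.05, 0.07 and 0.08 log2 units in mice 1, 3, 11, 14 and 16. After renewed quantile normalization it was 0.01, -0.05, -0.12, 0.04 and 0.14, so that mouse 11 lay lower and mouse 16 higher. Over all called genes, on the deposited signals, it was -0.04, -0.00, 0.02, 0.02 and 0.01. Mouse 14 was the highest mouse for 20 members and mouse 16 for 18, and mouse 11 was the lowest for 19. As shares of called members, mice 14 and 16 were highest for 35.7% and 32.1%, beside 26.7% and 21.6% of all called genes, and mouse 11 was lowest for 33.9%, beside 17.8%. Members are not replicates of a mouse, and these shares were not tested.

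Subunits of different roles did not follow the same mice. The roles were set with these values known, so the pattern is a description. Over the 8 subunits of complex II and of the complex III core, the median deviation was -0.14, 0.07, 0.17, 0.14 and -0.25 in mice 1, 3, 11, 14 and 16. Mouse 16 was the lowest mouse for 6 of these 8 genes, and 1 of 8, *Cyc1*, lay above its mean there. Over the 18 small subunits of complex III and common, muscle or liver-type subunits of complex IV, the median deviation was 0.00, -0.08, -0.18, 0.03 and 0.12. In mouse 16 lay 16 of these 18 genes above their mean, all but *Cox6a1* and *Cox6a2*, and in mouse 11 lay 2 of 18. In mouse 11, 6 of the 8 complex II and complex III core subunits lay above their mean. Over all called genes, 50.7% lay above their mean in mouse 16 and 52.8% in mouse 11. Mouse 16 was thus low for most genes of the first group and high for most of the second, and mouse 11 the opposite.

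The small membrane subunits of complex V went with the second group, with a median deviation of 0.05, -0.08, -0.23, 0.17 and 0.15. Above their mean lay 5 of 5 genes in mouse 16 and 0 of 5 in mouse 11, beside 50.7% and 52.8% of all called genes. The peripheral stalk genes had median deviations of -0.09, -0.07, 0.05, -0.10 and 0.14, and the c subunit genes of 0.02, -0.04, -0.05, -0.10 and -0.01, and so followed neither group. Over the 5 head subunits the median was -0.04, 0.00, 0.00, -0.02 and -0.03, but *Atp5a1*, *Atp5b* and *Atp5c1* read near the top of the scale. The other head subunits deviated further, *Atp5d* by -0.38 in mouse 1 and 0.50 in mouse 14, and *Atp5e* by -0.42 in mouse 11 and 0.66 in mouse 16. Signs of the median deviation in mice 11 and 16 were the same after renewed quantile normalization and after centring arrays on their median. This held for the first group, the second group and the small membrane subunits of complex V. The groups were formed with these deviations known, and both rescalings use the same 5 arrays. The kept signs therefore describe the effect of scaling and are no independent support for the pattern. Within the first group, the complex II subunits alone had a median of 0.08 in mouse 11 on the deposited signals. After renewed quantile normalization it was 0.02, with 2 of 4 genes above their mean, beside 0.21 over the complex III core. Mice 1 and 16, both low for the complex II and complex III core subunits, were also the mice with low *Eif2s3y*, and fibroblast markers had median deviations of -0.09, 0.65, -0.68, -0.24 and 0.41 in mice 1, 3, 11, 14 and 16. The part of either in these deviations was not tested.

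**Figure D3:**
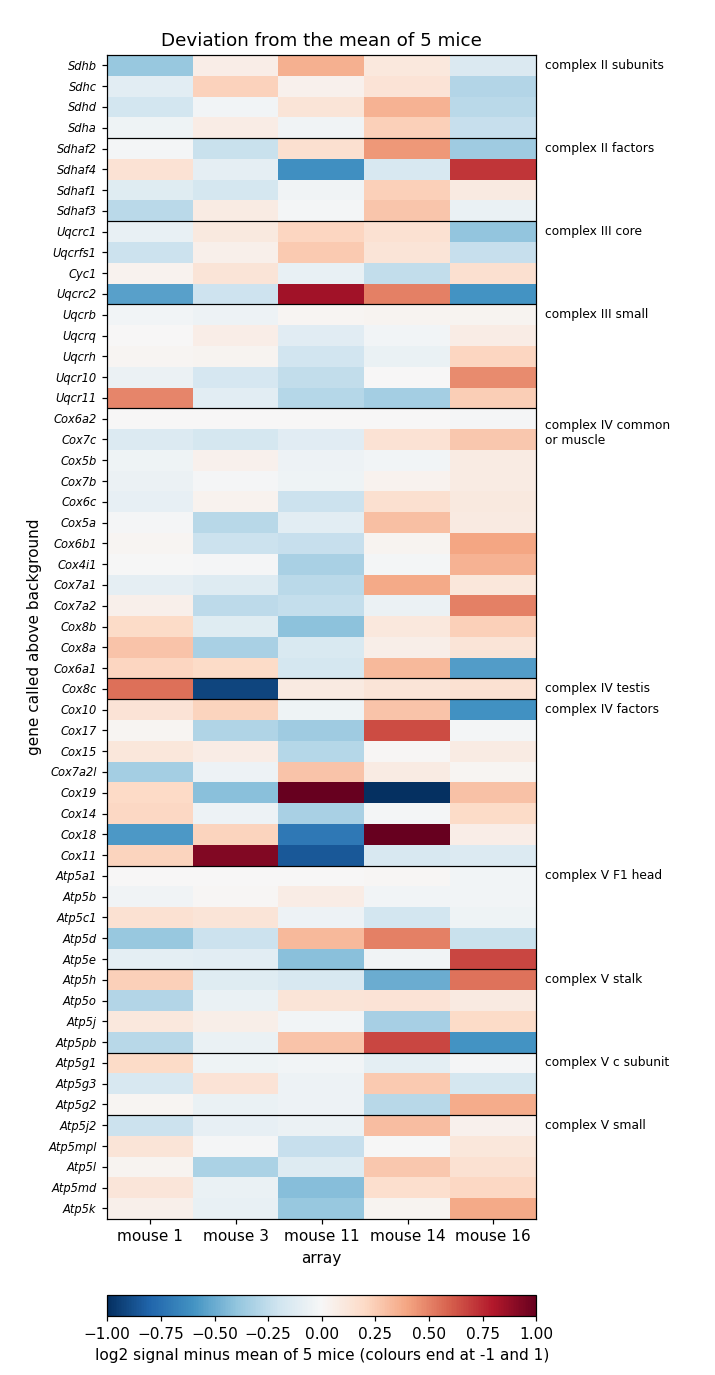
Deviation of the log2 signal from each gene's mean over the 5 mice, shown per mouse for the called members by complex and role. In mouse 16 the complex II and complex III core subunits lie mostly below 0 (median -0.25) and the complex III small and complex IV subunits mostly above it (median 0.12), and mouse 11 shows the opposite signs (0.17 and -0.18).

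The spread between mice was smaller at higher signals. The median SD over the 5 mice was 0.23 over called members and 0.36 over all called genes. For mean signals of 5 to 10 it was 0.378 over 8 members and 0.373 over 5693 called genes. For 10 to 15 it was 0.296 over 16 members and 0.355 over 2431 genes, and for 15 to 18 it was 0.224 over 22 members and 0.303 over 288 genes. Between 18 and 20 it was 0.0572 over 10 members and 0.137 over 70 genes. Members and all called genes thus had a like SD at mean signals of 5 to 10, and members a smaller one in each band from 10 to 20. Of these bands, 18 to 20 is the one near the highest value an array gives. None of these differences was tested. The genes with the smallest SD, *Cox6a2*, *Atp5a1* and *Uqcrb*, had means of 19.75, 19.74 and 19.65. By role, the median SD was 0.22 over the 43 subunits and 0.34 over the 12 assembly factors, which differ in signal as given above.

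**Figure D4:**
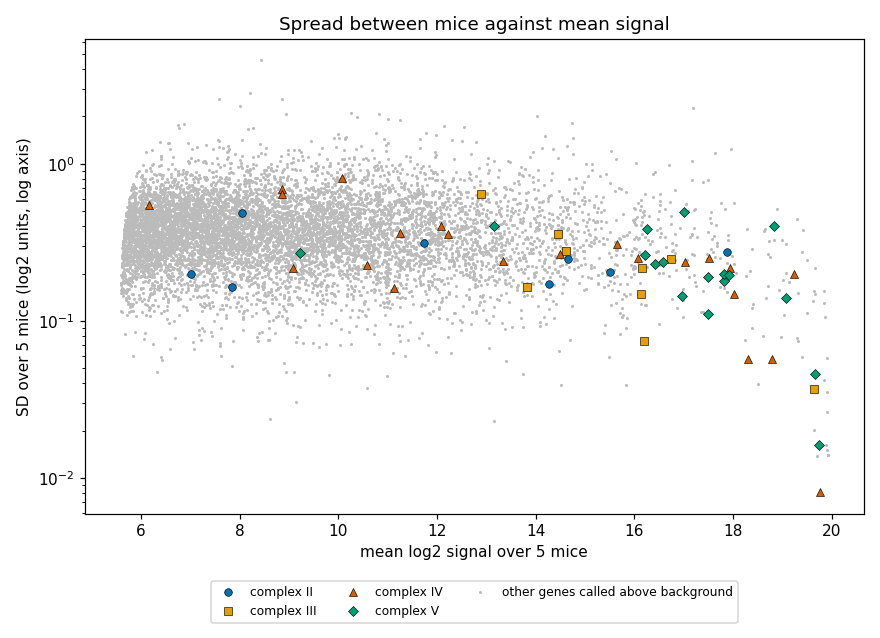
SD of the log2 signal over the 5 mice against the mean log2 signal, with members drawn over all called genes. SD falls towards the top of the scale, where the 10 members with a mean of 18 to 20 have a median SD of 0.0572, and the assembly factors *Cox19*, *Cox18* and *Cox11* have the largest SD of the called members (0.81, 0.69 and 0.65).

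Most other listed genes of the pathway were called as well, beside 43.5% of all genes. Of 33 listed factors of complexes III to V and cytochrome c outside the symbol rule, 31 were measured and 29 were called, all but *Coa4* and the testis cytochrome c *Cyct*. The highest were *Ndufa4*, a protein now placed in complex IV, at 19.28, 19.29, 19.24, 19.20 and 19.58, and *Cycs*, the somatic cytochrome c, at 18.55, 18.85, 18.77, 18.88 and 18.52. *Ndufa4* was highest in mouse 16, where *Cycs* was lowest. The called factors had a median SD of 0.39. Of 7 listed core subunits of complex I, 6 were measured and all 6 were called, with means of 14.37 to 18.40 and a median SD of 0.23.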

How the data were processed

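Ribosome-bound RNA of the left soleus, recovered through the HA tag in 5 mice, was hybridized to mouse Clariom S arrays. The authors processed the intensities with Transcriptome Analysis Console 4.0 in its default configuration and deposited log2 signals. Which summarization algorithm and which genome build served is not given in the sources used here. Main values use the deposited signals as they are. Genes with several probe sets (55 of 19505, no member) took the mean of their probe sets. Because other probe sets set the cutoff, a call depends also on probe affinity.

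The cutoff of an array, the 95th percentile over 1091 odorant receptor genes, was subtracted from its signals. The distances entered a one-sample, two-sided limma fit (version 3.58.1, R 4.3.3, lmFit and eBayes) with Benjamini-Hochberg adjustment over 19505 genes. Of the odorant receptor genes, 9 were called. Titles name separate mice. The p-values set a gene's distance from the cutoff against its spread over these 5 mice of 1 group. The limma fit pools this spread with a prior drawn from all genes. At *Cox6a2*, with an SD of 0.008 between mice, the SE of 0.13 came mostly from this prior. There is no read depth, and precision is limited by the number of arrays.

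The members, gene lists, roles and tests were chosen with earlier results of these data known. Genes given in every mouse are the paralog families, the c subunit genes, the members with the highest and lowest signal of each complex, those not called, the 3 called members with the largest and the 3 with the smallest SD, and those in which Dixon's ratio of 1 mouse passed 0.71, the critical value at n = 5. *Sdha*, *Uqcrc1*, *Uqcrfs1*, *Cyc1*, *Ndufa4* and *Cycs* were given in every mouse after their values were seen. Promoters came from RefSeq (GRCm38.p6) and were matched by the Entrez gene identifier in the array annotation.

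The alternatives were 2 other background sets (genes of vomeronasal receptors, and of keratin-associated proteins and beta-defensins), the 50th, 90th and 99th percentiles, renewed quantile normalization, median centring, a gene's brightest probe set, leaving out low genes, a trended and robust prior, centring genes on their median, leaving out genes near the top of the scale, each mouse left out, and mice 3, 11 and 14 alone. Python 3.11.15 served for tables (pandas 2.3.3, numpy 2.4.6) and for figures (matplotlib 3.10.9).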

Additional observations from a re-analysis of the deposited data

Results flagged for a closer look

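In 3 of 59 members a single mouse stood apart from the other 4 by Dixon's ratio, the gap to the nearest mouse over the whole range, where chance gives about 2.95 (about 1 in 20). *Cox6a2* had a ratio of 1, with 4 mice at the same signal and mouse 16 lowest by 0.02 log2 units. *Atp5a1* had a ratio of 0.731, also with mouse 16 lowest. Both read within 1 log2 unit of the top of the scale. *Cox15* had a ratio of 0.755, with mouse 11 lowest.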

How the results depend on the processing

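The 56 members called above background were all called under each alternative except for *Cox8c*, which was lost at the 99th percentile and with the keratin-associated protein and beta-defensin background (55 called in each). At the 50th percentile *Cox4i2* was gained (57 called, beside 65.7% of all genes). There the distance of *Cox4i2* from the cutoff was 0.66 (adjusted p = 0.00694, limma) and that of *Cox7b2* 0.13 (adjusted p = 0.556), against -0.59 and -1.12 in the values reported. These sign changes follow from the lower cutoff. At the 90th percentile *Cox4i2* lay at -0.31 (adjusted p = 0.135). After renewed quantile normalization the median deviation of mouse 11 over the members was -0.12, against -0.05 in the values reported, and the cause was not tested. With each mouse left out in turn, 56 members were called every time, the median SD was 0.196 to 0.248 and the mean difference of *Cox7a1* minus *Cox7a2* was 0.32 to 0.53. Of the main values, 191 kept their direction and side of the threshold, or moved by less than the spread between mice, and 1 moved, while of the values for single genes 426 kept them, 3 lost the call or the threshold and 2 changed sign. No paired analysis was possible because all 5 mice belong to 1 group, so that there were no groups to pair. Signals near the top of the scale limit what can be seen between mice for *Cox6a2*, *Atp5a1* and *Uqcrb*, and signals below the cutoff have no level here.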

Other observations

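*Ppargc1a*, a coactivator of respiratory chain genes, read 15.73, 16.11, 13.22, 13.88 and 11.17 in mice 1, 3, 11, 14 and 16, a range of 4.94 log2 units. The largest range of a called member was 2.16, at *Cox19*. *Pdk4*, which inhibits pyruvate dehydrogenase, read 18.85, 18.90, 17.85, 16.96 and 13.37, a range of 5.53. Mouse 16 was lowest for both genes. These genes were chosen after their values were seen, and no relation over the 5 mice was computed.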
